A study of Mus musculus with 2 samples.

Results

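A set of 10 genes of the regulated secretory pathway was examined, 4 that code for enzymes of neuropeptide processing (Cpe, Pcsk1, Pcsk2 and Pam) and 6 that code for granins or granin-like proteins (Chga, Chgb, Scg2, Scg3, Scg5 and Vgf). Members were taken by a fixed list of gene symbols, drawn up with earlier results of these data known, and make up 10 of 55536 annotated genes and 43 of 141767 transcripts. The tissue was hippocampus, labelled as its layer, from male B6CASTF1/J mice at 18 to 20 months of age, first-generation hybrids of C57BL/6J and CAST/EiJ. There was 1 group, with no treatment, no younger age and no other tissue beside it. It holds 2 biological replicates, called replicate 1 and replicate 2, each a total RNA library made from 300 ng of RNA. Both come under 1 donor record, and whether they are separate animals is not given. With 1 group there was nothing to compare between conditions, and no difference below was tested. Each value is therefore given for both libraries with its mean and SD (n = 2), an SD that may be technical.

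Peptide hormones and neuropeptides are made as long precursors that enter the regulated secretory pathway and are stored in dense core vesicles. Within the vesicle, prohormone convertases cut the precursor after pairs of basic residues, carboxypeptidase E removes the basic residues left at the new end, and peptidylglycine alpha-amidating monooxygenase amidates many of the products. Granins are acidic proteins that aggregate as the vesicle forms and are themselves cut into peptides. In the hippocampus these genes are used by excitatory neurons and by interneurons that release peptides such as somatostatin, cholecystokinin and neuropeptide Y. The bulk tissue used here does not show which cells, neurons or others, a transcript came from.

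Several members differ between their own transcripts in the coding sequence, and the stretches concerned are shown because transcripts compared below differ in them. The shares below are those of whole transcripts, which also differ outside these stretches. Coordinates are those of mm10 (GRCm38), and each sequence is read 5′ to 3′ on the minus strand, on which these 4 genes lie. In Scg2, which codes for secretogranin II, the precursor of secretoneurin, 120 coding bases (40 codons) of Scg2-201 are spliced out in Scg2-202, at chr1:79435932-79436051. The capitals mark the first 2 and last 2 bases, GT and AG, the letters at which most introns start and end.

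Scg2-201 segment: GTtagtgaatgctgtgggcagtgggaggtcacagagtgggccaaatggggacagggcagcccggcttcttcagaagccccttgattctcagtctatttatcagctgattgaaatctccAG

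In Scg3, which codes for secretogranin III, an adaptor that binds other granins at the vesicle membrane, the exon at chr9:75663193-75663276 of Scg3-201 ends with 15 bases (5 codons) that Scg3-202 lacks. The capitals mark these bases.

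Scg3-201 exon: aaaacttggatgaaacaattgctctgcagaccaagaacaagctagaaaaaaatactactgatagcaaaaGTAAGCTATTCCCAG

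Pam joins a pair of catalytic activities in 1 protein, and the linker between them is known to vary by splicing. Pam-201 holds a coding exon of 318 bases (106 codons) that Pam-210 skips, which takes the protein from 979 to 873 codons. The stretch at chr1:97864315-97864434 lies inside that exon, and the capitals mark codons 436 to 437, the 1 pair of neighbouring basic codons found in it.

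Pam-201 stretch: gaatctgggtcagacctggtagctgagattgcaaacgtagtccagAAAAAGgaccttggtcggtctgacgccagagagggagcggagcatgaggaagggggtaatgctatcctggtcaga

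Scg5 codes for 7B2, the chaperone of proprotein convertase 2, which is itself cut at a run of basic residues to free an inhibitory peptide at its end. The exon at chr2:113780634-113780687 ends with 5 basic codons in a row, codons 177 to 181 of 212, shown in capitals.

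Scg5-201 exon: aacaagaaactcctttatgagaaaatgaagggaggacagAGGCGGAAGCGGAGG

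The summed expected counts of annotated genes were 34563482 (replicate 1) and 32370292 (replicate 2), so 3 counts, taken as the floor of detection, were worth 0.0868 and 0.0927 CPM. The replicates were not copies of each other: over 17957 genes their counts differed by a chi-square of 8.46 per degree of freedom. Of the 9 marker lists used to check the labelled tissue, the excitatory neuron list of the hippocampus was detected in 8 of 8 genes and the inhibitory neuron list in 6 of 6, a gene being called detected when each library had 1 TPM or more. Astrocyte (5 of 5), oligodendrocyte (5 of 5), microglia (4 of 4), endothelial (4 of 4) and neighbouring-region (6 of 6) markers were detected as well. By the same rule 12660 of 22015 nuclear protein-coding genes were detected. None of the 9 endocrine markers of pituitary, hypothalamus or adrenal was detected (summed TPM 1.72 and 2.04), and Cga and Tshb were at 0 in both libraries. In the second quantification 1 of the 9 passed, Pomc at 1.76 and 1.96 TPM (0.95 and 0.98 in the first). Tshb was at 0.22 and 0.19 TPM there. Choroid plexus markers differed between the replicates, as given beside the comparison of the libraries.

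The members together held 1810 TPM in replicate 1 and 1956 TPM in replicate 2, which was 0.444% and 0.460% of the TPM of nuclear protein-coding genes. TPM is a length-corrected share of all transcripts, so levels of different genes can be set side by side. The 10 genes were all detected. For scale, 12660 of 22015 nuclear protein-coding genes were detected, and their median was 14.5 TPM, with quartiles of 5.99 and 32.5 TPM. Above the upper quartile lay 9 members, and 1, Pcsk1, lay below the median. Cpe alone held more TPM than the other 9 members together in each library, and without Cpe the remaining enzymes summed to 149 and 158 TPM, against 602 and 643 TPM for the 6 granins.

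Among the enzymes, Cpe stood far above the rest. Cpe (chromosome 8, 64592542 to 64693054, minus strand), which trims the basic residues that convertases leave behind, reached 1058 TPM in replicate 1 and 1155 TPM in replicate 2 (1106 ± 68.6, SD, n = 2). It ranked 6 among 22015 nuclear protein-coding genes. Its level was 6.37 and 6.41 times that of Scg5, the next member down.

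Pam (chromosome 1, 97795114 to 98095646, minus strand), the amidating enzyme, was measured at 74.2 and 77.1 TPM (75.7 ± 2.02, SD, n = 2; rank 1171). Cpe was 14.3 and 15.0 times as high as Pam. A processed pseudogene on the same strand inside Pam, Gm3531, was counted separately at 23.4 and 28.9 TPM. How far reads were divided correctly between overlapping genes was not tested.

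Pcsk2 (chromosome 2, 143546156 to 143816285, plus strand) codes for proprotein convertase 2, the convertase that finishes many neuropeptides. It was measured at 66.5 and 72.2 TPM (69.3 ± 3.99, SD, n = 2; rank 1294), close to Pam: the ratio of Pam to Pcsk2 was 1.12 and 1.07. Their order turned when only protein-coding transcripts were counted, at means of 66.1 TPM for Pam and 67.9 TPM for Pcsk2. An antisense gene, Pcsk2os1, overlaps it at 1.10 and 0.98 TPM, and whether counting used the strand is not stated.

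Pcsk1 (chromosome 13, 75089826 to 75134861, plus strand) codes for proprotein convertase 1/3, which usually makes the first cuts. It was the lowest member by a wide margin, at 8.48 and 9.16 TPM (8.82 ± 0.481, SD, n = 2; rank 8277). The gap between the convertase genes was therefore large in both libraries: Pcsk2 was 7.84 and 7.88 times as high as Pcsk1 (7.86 ± 0.0236, SD, n = 2). In the second quantification, which assigned reads to transcripts directly, the ratio was 6.62 and 7.91, so its spread was wider there. Counting only complete coding transcripts of the first gave 8.34 and 7.87, also a wider spread. Cpe made up 87.6% and 87.9% of the summed TPM of the 4 enzyme genes (87.8 ± 0.212, SD, n = 2).

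**Figure D1:**
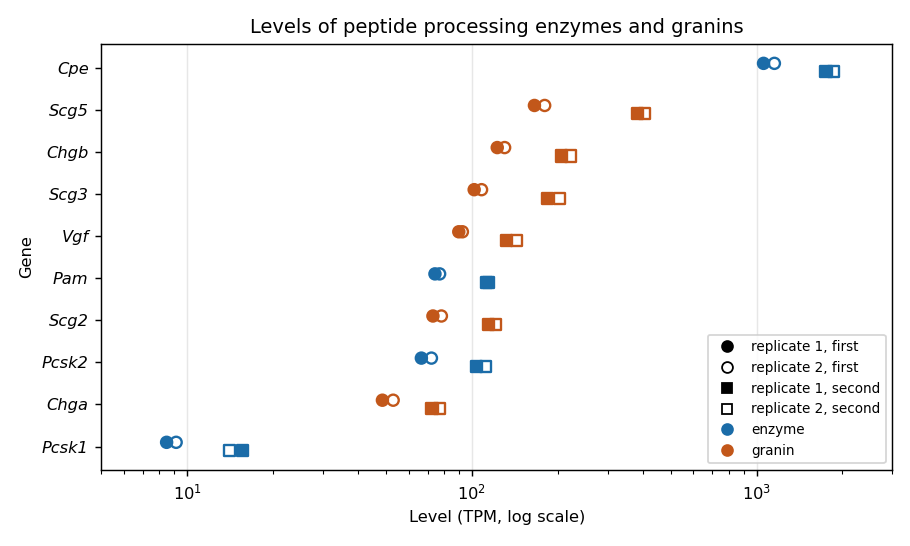
TPM (log scale) of the 10 genes in replicate 1 (filled) and replicate 2 (open), from the first (circles) and second (squares) quantification, ordered by mean TPM of the first, enzymes in blue and granins in orange. Cpe lies near 1106 TPM and Pcsk1 near 8.82 TPM in the first quantification, with the other 8 genes between 48.6 and 180 TPM.

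The granins covered a much narrower range than the enzymes, from 48.6 TPM for Chga in replicate 1 to 180 TPM for Scg5 in replicate 2. Scg5 (chromosome 2, 113776362 to 113829121, minus strand) was the highest, at 166 and 180 TPM (173 ± 10.1, SD, n = 2; rank 342). The RNA of the chaperone gene was thus higher than that of its convertase, at 2.49 and 2.50 times the level of Pcsk2 (2.50 ± 0.00244, SD, n = 2). In the second quantification this ratio was 3.70 and 3.63. When only complete coding transcripts were counted, it was 2.51 and 2.49 in the first and 2.59 on average in the second.

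Chgb (chromosome 2, 132781278 to 132795079, plus strand), chromogranin B, was measured at 123 and 130 TPM (127 ± 5.34, SD, n = 2; rank 559). Chga (chromosome 12, 102554969 to 102565028, plus strand), chromogranin A, the granin best known from the adrenal medulla, was the lowest granin at 48.6 and 53.0 TPM (50.8 ± 3.12, SD, n = 2; rank 1888). The libraries did not overlap between these genes, and Chgb was 2.53 and 2.46 times as high as Chga (2.50 ± 0.0482, SD, n = 2). The second quantification gave 2.85 and 2.87.

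Scg3 (chromosome 9, 75643189 to 75684056, minus strand) was measured at 102 and 108 TPM (105 ± 4.44, SD, n = 2; rank 746). Vgf (chromosome 5, 137026392 to 137033351, plus strand), a precursor of several secreted peptides whose expression is induced by neurotrophins, was measured at 90.0 and 92.7 TPM (91.4 ± 1.88, SD, n = 2; rank 895). Scg2 (chromosome 1, 79434669 to 79440120, minus strand) was measured at 73.0 and 78.2 TPM (75.6 ± 3.66, SD, n = 2; rank 1173). Scg2 and Pam were the only neighbours in the order of levels whose 2 values overlapped: the ratio of Scg2 to Pam was 0.984 in replicate 1 and 1.01 in replicate 2.

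The full order, from high to low, was Cpe, Scg5, Chgb, Scg3, Vgf, Pam, Scg2, Pcsk2, Chga and Pcsk1. In the second quantification the order was the same except that Pam and Scg2 changed places. Counting only complete coding transcripts of the first put Scg2 (75.6 TPM) above Vgf (72.4 TPM) and Pcsk2 (67.9 TPM) above Pam (63.1 TPM), in the order Cpe, Scg5, Chgb, Scg3, Scg2, Vgf, Pcsk2, Pam, Chga and Pcsk1. The levels themselves depended on the quantification: the second gave 1.48 to 2.28 times the TPM of the first, with Scg5 at the upper end. Over all detected nuclear protein-coding genes the median of this ratio was 1.63 (quartiles 1.51 and 1.83), and over the members it was 1.59.

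Since 2 libraries of 1 group show no pattern beyond a level, the gene most like each member could only be the one nearest in TPM. For Cpe this was Hpca, a neuronal calcium sensor used above as a hippocampal marker, at 1066 and 1130 TPM. Scg5 lay nearest to Faim2 (166 and 182 TPM), Vgf to Ptn (90.1 and 92.4 TPM) and Chga to Gars (48.6 and 53.0 TPM). The nearest to Pcsk1 was Wdr81 at 8.50 and 9.21 TPM. For Chgb, Scg3, Pam, Scg2 and Pcsk2 the nearest were Rps12-ps3, Oxct1, Rnf220, Jund and Soga3.

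Most of each gene's TPM came from transcripts annotated as protein coding: the median over the members was 98.8% in replicate 1 and 98.4% in replicate 2. Cpe-201 held 98.9% and 98.6% of Cpe, Pcsk2-201 held 97.7% and 98.1% of Pcsk2, and Chga-201 held 96.4% and 95.4% of Chga. Chgb has a single annotated transcript. Which transcript led was the same in both quantifications for 9 of 10 members. Among members with several transcripts the count was 8 of 9, and the background over 11903 expressed genes with several transcripts was 76.3%. Vgf was the exception.

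In Scg2 the transcripts with and without the coding segment shown above had nearly even shares in the first quantification. With 2515 bases in Scg2-201 and 2317 in Scg2-202 they also differ outside the segment, and reads over it were not counted. Scg2-201, which keeps the 40 codons, held 53.7% and 52.5% of the gene, and Scg2-202, which lacks them, held 46.3% and 47.5%. The model's own interval for Scg2-201 ran from 34.1 to 42.0 TPM in replicate 1 and that for Scg2-202 from 28.8 to 37.4 TPM. These intervals overlapped, which by itself does not decide which transcript was higher, and the difference was not tested. The second quantification gave Scg2-201 more, 59.9% and 62.8%. Every library, in both quantifications, thus placed 37.2% or more of Scg2 on a transcript with 577 codons in place of 617.

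Most of the TPM of Scg3 was assigned to the transcript without the 5-codon end of the exon. Scg3-202, without it, held 73.1% and 72.1% of Scg3, and Scg3-201, with it, held 22.7% and 24.3%. With 2384 bases in Scg3-201 and 2152 in Scg3-202 they also differ outside this end, and reads over it were not counted. Scg3-202 was 3.23 and 2.97 times as high as Scg3-201, and 2.94 and 2.46 times as high in the second quantification. Scg3-206, a transcript annotated as a target of nonsense-mediated decay, held 1.27% and 0% in the first quantification (0.633 ± 0.895, SD, n = 2) but 19.0% ± 2.82 (SD, n = 2) in the second.

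Transcripts of Pam with the 106-codon exon exceeded the one that skips it. With 4095 bases in Pam-201 and 3630 in Pam-210 they also differ outside the exon, and reads over it were not counted. Pam-201 held 57.1% and 58.7% of the gene, Pam-202, which lacks only 1 codon of Pam-201, held 12.1% and 13.2%, and Pam-210, without the exon, held 11.7% and 13.8%. Together Pam-201 and Pam-202 were 5.94 and 5.20 times as high as Pam-210. The second quantification gave a ratio of 16.8 and 15.4, with Pam-210 at 4.66% and 5.46%, so the direction was shared but the size was not. The complete coding transcripts added up to 80.9% and 85.8% of Pam, the rest lying in retained introns and fragments.

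Vgf was the member whose leading transcript changed with the quantification. Vgf-201 and Vgf-204 code for the same 617 codons and differ in their noncoding exons at the 5′ end, with 2 exons in Vgf-201 and 5 in Vgf-204. The first quantification gave 75.0% and 77.4% to Vgf-201 and 1.66% and 4.35% to Vgf-204, whereas the second gave 9.66% and 9.26% to Vgf-201 and 66.6% and 68.1% to Vgf-204. The ratio of Vgf-201 to Vgf-204 was 45.3 in replicate 1 and 17.8 in replicate 2 of the first quantification, and 0.145 and 0.136 in the second. Vgf-203, a model of 581 bases with an incomplete end, held 23.4% and 18.2% in the first and 23.8% and 22.7% in the second.

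Scg5 differed in another way. Scg5-201, the only coding transcript, held 98.2% and 97.9% in the first quantification and 67.4% and 70.5% in the second, and the noncoding Scg5-202 held the remaining 32.6% and 29.5% there. Cpe-202, a noncoding model of Cpe, held 0.915% and 1.22% in the first quantification and 11.3% and 9.07% in the second. Pcsk1-203, a fragment of Pcsk1, held 20.7% in replicate 1 and 0% in replicate 2 of the second quantification, where Pcsk1-201 held the rest but for 0.737% in replicate 1. Cpe-202 and Pcsk1-203 fell outside the 10% rule for named transcripts and were chosen after their values were seen.

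**Figure D2:**
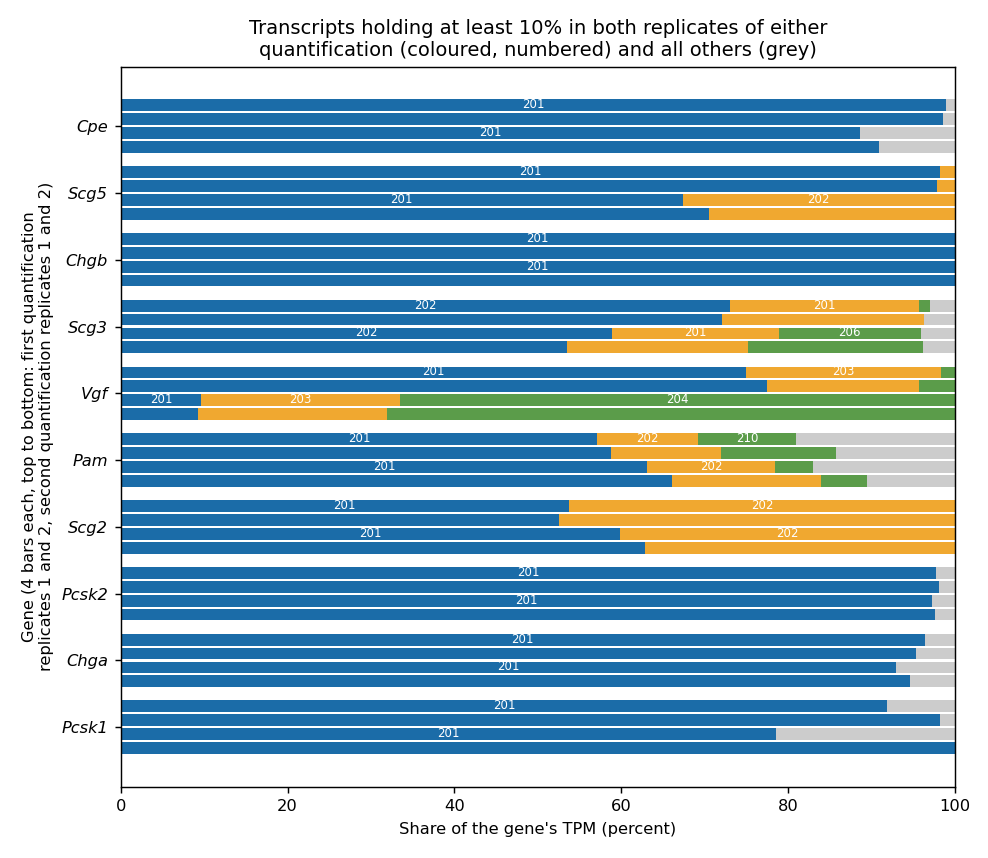
Share of each gene's TPM (percent) held by its named transcripts, those with at least 10% in both replicates of either quantification, as 4 bars per gene: first quantification, replicates 1 and 2, then second quantification, replicates 1 and 2; numbers are the transcript's suffix and grey is all other transcripts. The bars of Vgf change colour between quantifications (Vgf-201 at 75.0% and 77.4%, then 9.66% and 9.26%), while those of Chgb, Pcsk2 and Chga hardly move.

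The coding sequences of the granins were richer in acidic codons (for aspartate or glutamate) than those of the enzymes. Acidic codons made up 23.2% of Chgb, 21.8% of Chga, 20.3% of Vgf, 20.0% of Scg3 and 19.1% of Scg2, each in the leading transcript. Scg5 was lower at 14.6%, beside Cpe at 14.1%. Pcsk1 (12.7%), Pam (12.7%) and Pcsk2 (12.6%) lay near the background, whose median over 12576 detected genes was 11.9% with quartiles of 9.89% and 13.9%. The first 5 lay above 96.8% to 99.3% of those genes, and Scg5 above 81.2%.

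**Figure D3:**
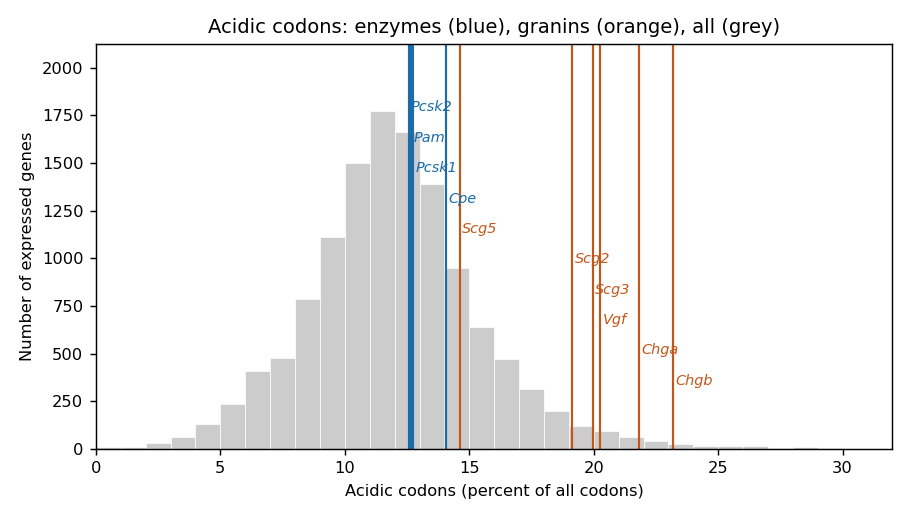
Number of detected protein-coding genes (grey bars, bins of 1 percentage point) by the percent of acidic codons in the leading complete coding transcript, with lines for the 4 enzymes (blue) and 6 granins (orange). Lines for Scg2, Scg3, Vgf, Chga and Chgb stand between 19.1% and 23.2%, and those of the enzymes and Scg5 between 12.6% and 14.6%.

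Neighbouring basic codons, the letters of potential convertase sites, did not set the granins apart as a group. Counting each adjacent pair of codons for lysine or arginine, Chgb held 23 pairs (3.40 per 100 codons), Scg5 7 (3.30), Vgf 16 (2.59) and Chga 9 (1.94). Scg3, with 7 pairs, and Scg2, with 9 (1.46 per 100 codons), lay at the background median of 1.49 (quartiles 0.966 and 2.19). Among the enzymes Pcsk2 held 2.51, Cpe 1.68, Pcsk1 1.59 and Pam 1.02 per 100 codons. A run of at least 4 basic codons was present in 22.5% of all the genes; the longest run was 6 codons in Vgf, 5 in Scg5 and in Cpe, and 4 in Chgb and Pcsk2. These counts describe the coding letters only, and cleavage was not measured.

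Promoter letters were examined for the cAMP response element, TGACGTCA, a motif that CREB-family factors bind and that is known from genes of the secretory pathway. RefSeq windows (GRCm38.p6) from 250 bases before to 50 after the start were matched by symbol for 8 of 10 members, in 9 windows. Cpe and Vgf had no entry. Both strands were searched, the full motif being its own reverse complement, and each full motif also contains the shorter motif TGACG and its reverse complement CGTCA. The full motif was found in 3 of 8 members, at -68 in Scg2, -72 in Chgb and -78 in Pcsk1 relative to the RefSeq start, against 1.79% of 32851 windows (588). The RefSeq starts of Scg2 and Chgb lie 94 and 364 bases inside the GENCODE gene, and the motif there falls in an exon of 1 GENCODE transcript, so by GENCODE only the motif of Pcsk1 lies upstream of the gene. TGACG or CGTCA was found in 7 of 8 members and in 20.8% of all windows. Pam was the member without either. A match describes letters, and binding was not measured.

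The stretches of Pcsk1 and Chga are shown as an example of a full and a partial match. Capitals mark the full motif in Pcsk1 and TGACG in Chga. The Pcsk1 stretch also holds a further TGACG, left in lower case. That of Pcsk1 lies at chr13:75089739-75089825 and that of Chga at chr12:102554857-102554940, both on the plus strand.

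Pcsk1 upstream: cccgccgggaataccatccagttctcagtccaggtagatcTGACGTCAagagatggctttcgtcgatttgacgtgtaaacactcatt

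Chga upstream: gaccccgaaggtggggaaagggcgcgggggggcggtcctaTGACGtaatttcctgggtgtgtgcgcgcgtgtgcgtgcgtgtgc

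Other genes of the pathway were counted from lists chosen by function. The counts of detected genes are to be set beside the 12660 of 22015 nuclear protein-coding genes detected in all. Of the vesicle genes for dense core vesicle biogenesis and release, 22 of 24 were detected. The highest were Snap25 (947 ± 70.8 TPM, SD, n = 2), Vamp2 (407 ± 21.1), Rab3a (334 ± 18.7) and Ptprn (162 ± 6.80), and the first 3 also serve synaptic vesicles. The lowest was Slc18a2, the vesicular monoamine transporter, at 0.37 TPM on average.

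Of the precursors that these enzymes act on, 14 of 15 were detected. Cck (271 ± 18.4 TPM, SD, n = 2), Sst (179 ± 16.6), Npy (52.3 ± 8.02) and Penk (22.0 ± 0.382) were the highest, and Crh, at 1.03 TPM, the lowest. Cpe was thus higher than the highest precursor gene in both libraries (258 and 284 TPM for Cck). Pcsk1, at 8.48 and 9.16 TPM, was below these 4 highest but above the median of the list, 3.86 and 4.13 TPM.

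Of the other convertases and their inhibitor 7 were detected. Pcsk1n, which codes for proSAAS, the inhibitor of proprotein convertase 1/3, reached 174 and 190 TPM, 20.6 and 20.8 times Pcsk1, and lay beside Scg5 at 1.05 times its level in both libraries. Mbtps1 (26.8 ± 0.120 TPM, SD, n = 2), Furin (16.4 ± 2.21), the convertase of the constitutive pathway, and Pcsk7 (8.48 ± 0.863) followed. Furin was 1.75 and 1.97 times as high as Pcsk1, and Pcsk2 was 4.47 and 4.01 times as high as Furin.

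Among the relatives of Cpe 4 of 7 carboxypeptidase genes were detected, led by Cpd at 25.2 and 26.0 TPM. Cpe was 42.0 and 44.5 times as high as Cpd. Cpm (4.37 ± 1.37 TPM, SD, n = 2), Aebp1 (3.24 ± 0.488) and Cpxm1 (2.14 ± 0.205) were lower, and Cpn1 was lowest at 0.095 TPM.

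The other peptide-modifying enzymes were detected in 10 of 10 cases, from Ctsl (39.7 ± 3.59 TPM, SD, n = 2), Thop1 (20.2 ± 0.255), Ece1 (20.1 ± 1.21) and Rnpep (18.9 ± 1.45) down to Mme, neprilysin, at 2.04 TPM. Of the partners and relatives of Pam 5 of 7 were detected. Kalrn (201 ± 9.59 TPM, SD, n = 2) and Trio (118 ± 2.10), exchange factors of which the first is known to bind the tail of Pam, were above Pam itself, with Uhmk1 at 62.0 ± 5.11 and Moxd1 at 5.03 ± 0.742. Dbh, the monooxygenase of noradrenaline synthesis, was lowest at 0.12 TPM.

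**Figure D4:**
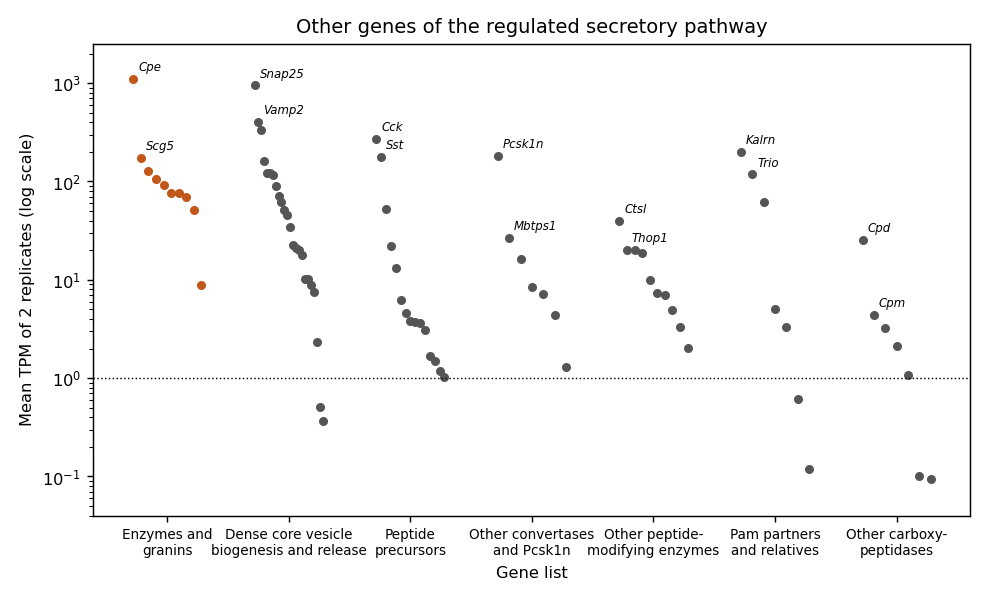
Mean TPM over the 2 replicates (log scale) of the 10 enzymes and granins (orange) and of the genes in 6 functional lists (grey), each sorted from high to low with the 2 highest named; the dotted line is 1 TPM, and the log axis shows genes above 0 TPM only. Cpe lies above every gene plotted in the other lists, Snap25 at 947 TPM included.

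The replicates were compared on counts normalized by TMM, a scaling that assumes most genes to be equal. The members differed little. For Cpe 53138 counts in replicate 1 and 53173 in replicate 2 gave 1548 and 1631 normalized CPM, a log2 ratio of replicate 2 to replicate 1 of 0.08 (95% Clopper-Pearson interval 0.06 to 0.09). Pcsk1, with the fewest counts (972 and 1031), had the largest ratio, 0.16 (0.03 to 0.29). Chgb had the smallest at 0.04 (-0.01 to 0.08). Intervals and floors take in counting error alone, as the reads carried no molecular identifiers that would mark single molecules.

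None of the 10 members was 1.5-fold apart between the replicates, against a background of 0.333% of the 11417 genes that averaged 5 CPM or more. At 2-fold the background was 0.140%, again with 0 members. The ratio was above 0 for 10 of 10 members and for 53.4% of the 11417 genes, with a member median of 0.07, against 0.01 over all 11417 genes and 0.02 over the 5548 protein-coding genes within the members' range of CPM. The counting interval lay above 0 for Cpe, Pcsk1, Pcsk2, Pam, Scg5 and Vgf and included 0 for Chga, Chgb, Scg2 and Scg3. Such an interval, which narrows with the count, lay above 0 for 11.6% of the 11417 genes and excluded 0 in either direction for 20.3%. Among the protein-coding genes in the members' range of CPM it lay above 0 for 17.7%. Scaling on the ERCC spike-ins turned the sign of all 10, with a member median of -0.11, and moved the median of all genes to -0.17. A change of scaling moves all genes alike, so relative to the median of all genes the members necessarily stood at 0.06 under both scalings. In bulk tissue fewer cells of a type and less RNA per cell cannot be told apart.

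Choroid plexus markers were higher in replicate 2 for 7 of 7 genes, with a summed level of 36.8 TPM in replicate 1 (0.17 to 29.9 per gene) and 699 TPM in replicate 2 (2.01 to 672 per gene), Ttr making up most of both. By TPM, inhibitory neuron markers were also higher in replicate 2 for 6 of 6 genes, with summed levels of 408 and 445 TPM. So were microglia (4 of 4), astrocyte (4 of 5), endothelial (3 of 4) and excitatory neuron markers (5 of 8). Oligodendrocyte (4 of 5) and neighbouring-region markers (4 of 6) were mostly higher in replicate 1. The part of any of these in the small differences of the members was not tested.

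**Figure D5:**
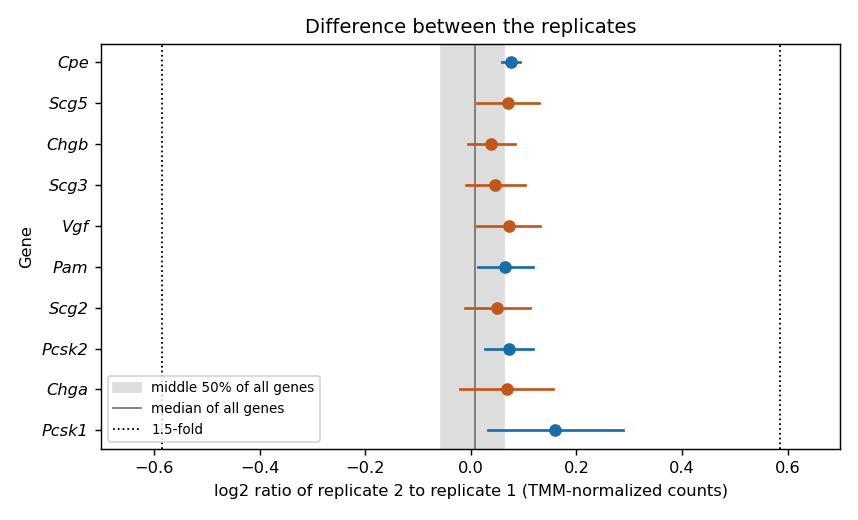
Log2 ratio of replicate 2 to replicate 1 (TMM-normalized counts) for each member, with 95% Clopper-Pearson counting intervals as lines, enzymes in blue and granins in orange; the grey band is the middle 50% of 11417 genes, the grey line their median and the dotted lines 1.5-fold. All 10 points lie between 0.04 and 0.16 under this scaling (all 10 are below 0 under ERCC scaling, which moves all genes alike), well inside the dotted lines.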

How the data were processed

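Total RNA of the 2 libraries was quantified by the authors per gene and, in 2 ways, per transcript. Per the deposited notes, the assembly was mm10 and the annotation GENCODE M21; the aligner, quantifier and version were not given in the sources used here. Gene and first transcript tables, made from alignments to the transcriptome, have the RSEM layout, per the file headers, with an expected count, a TPM value, each transcript's percent of its gene, and 2 measures of model spread used as a score: the posterior SD of the count, which was 0 for all 10 members, and the bounds of a TPM interval whose level is not stated. The second transcript table has the kallisto layout, made from the reads directly, and its deposited estimated counts and TPM were summed per gene. mm10 is a C57BL/6J assembly, and reads of CAST/EiJ origin may be placed less often; the 2 alleles were not separated.

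The genes were chosen by symbol, and the members and lists were chosen with earlier results of these data known. Named were all 10 members, the 4 highest and the lowest gene of each list, the gene nearest each member in log2(TPM + 1), and transcripts that lead or hold at least 10% of a gene in both replicates. Rounded expected counts were scaled with the TMM method (edgeR 4.0.16 under R 4.3.3), adding a prior count of 0.5. DESeq2 1.42.0 size factors, ERCC scaling, other transcripts and other settings were alternatives. Acidic and basic codons and coding differences were read from GENCODE M21 transcripts, and promoters from RefSeq. A gene that the naming rule picks from 1 list is not reported here. The library ratios were tried on simulated counts with large known changes, and codon counting on a made-up sequence. The other steps were not tried in this way. Python 3.11.15 was used. No test between groups was possible with 1 group.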

Additional observations from a re-analysis of the deposited data

How the results depend on the processing

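The 3 ratios and the Cpe share below kept their direction under the alternatives run, whereas the order of Pam and Pcsk2, Pam and Scg2, and Vgf and Scg2 turned under some. With the second quantification Pcsk2 to Pcsk1 was 7.26, Scg5 to Pcsk2 3.66, the Cpe share of the enzymes 88.4%, Chgb to Chga 2.86 and the protein-coding share 95.6%. With protein-coding transcripts only, the first 4 were 7.77, 2.50, 88.4% and 2.60. Complete coding transcripts, a choice made after seeing the data, gave 8.10, 2.50, 88.7%, 2.60 and a share of 97.5% in the first quantification and 7.96, 2.59, 88.2%, 3.05 and 89.3% in the second. The deposited posterior mean gave 7.47 for Pcsk2 to Pcsk1. Leaving out 1 of the 2 replicates only returns the value of the other, so it is no further check. It gave 7.84 to 7.88, 2.49 to 2.50, 87.6% to 87.9%, 2.46 to 2.53, 98.4% to 98.8%, and 9 members with the same leading transcript each time. The median log2 ratio of the members was -0.11 under ERCC scaling, against 0.07 under TMM; this scaling moves all genes alike, and relative to their median the members were at 0.06 under both. In the second quantification 23 of 24 vesicle genes, 15 of 15 precursors and 5 of 7 carboxypeptidases were detected. No paired analysis was possible because there is 1 group.

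The limits are 2 libraries, 1 group, bulk tissue and an unknown relation between the replicates. Pcsk1, with 972 and 1031 counts, is measured least precisely. Transcript shares of Vgf, Scg5, Scg3 and Pam depend on the quantification, and those of Scg2, Cpe and Pcsk1 also moved with it.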
